A study of Mus musculus with 20 samples.

Results

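Tumorspheres, cultures of tumor cells labelled as hemizygous for a MYCN transgene, were compared with tumor tissue of hemizygous mice. The 2 tumorsphere and 4 tumor samples, chosen by their titles, were 6 of the 20 samples of the series, each on 1 Affymetrix array. Tumors and tumorspheres shared the genotype, hemizygous for the transgene, and a mixed 129+Ter/SvJcl background, and none of the 6 carried the Mdk knockout found elsewhere in the series. A second pair of groups served as a reference for culture against tissue: 2 neurosphere cultures and 4 ganglia of wild-type 129+Ter/SvJcl mice. The 2 pairs had no array in common. The promoter that drives the transgene, the ages of the mice, the culture medium and the number of passages are not given in the sources used here. Whether replicates were separate mice or separate cultures is also unstated, so the p-values reflect spread among the arrays of the series alone. That spread was pooled within groups over all 20 arrays, not only the 6 compared, and may be technical.

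Neuroblastoma arises from sympathoadrenal precursors of the neural crest, and MYCN is its best known driver gene. Its cells keep a core circuit of transcription factors of noradrenergic neurons, such as HAND2, GATA3 and ISL1, and make the enzymes of catecholamine synthesis. Tumor tissue also holds blood vessels, macrophages and fibroblasts with their matrix, and a tumorsphere is a floating cluster of cells kept in culture without a surface to attach to. In a bulk sample, fewer cells of a type and less RNA per cell cannot be told apart.

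Values are deposited probe set intensities in arbitrary units, with 1 probe set per gene, and differences are log2 fold changes of intensity + 16, tumorsphere minus tumor, which understate the change of dim genes. Each is given with its standard error (SE) and an adjusted p from limma fitted to all 20 arrays. In all, 15140 genes were tested, their median difference was 0.01, and a gene is said to have risen or fallen where the adjusted p was under 0.05. Intensities of a few units or less lie near the floor of the array and have no order among themselves.

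The 2 tumorsphere arrays were close to each other, with 212 genes (1.4%) more than 1 log2 unit apart. Tumors 1 and 2 were as close, with 196 genes, while the other pairs of tumors differed by that much in 714 to 957 genes and tumors and tumorspheres in 1205 to 2579. Tumor 3 stood nearest to the tumorspheres, and it alone held skeletal muscle RNA, with Acta1 at 13.3, 20.3, 2389.8 and 44.1 in tumors 1 to 4. The 3' to 5' ratio of the actin control, a measure of RNA integrity, was 1.96 to 2.69 in tumors and 2.34 to 2.64 in tumorspheres.

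Among the genes tested, 846 (5.59%) rose and 1058 (6.99%) fell in tumorspheres, 12.6% together. Counts of list members given below have these shares as their background. Groups did not overlap in 1886 of the 1904 genes that passed, so lack of overlap adds little to a call. Groups were also separate in genes that did not pass, such as Adipoq and Hes1. The share of separate groups among all genes tested is not given here, so overlap is mentioned below only to describe the values. The falls were the larger changes: 233 genes fell and 58 rose by more than 2 log2 units, and 90 fell and 7 rose by more than 3. With arrays centred on their medians, which moved the median difference of all genes to 0.12, the split was 1133 higher and 828 lower. Counts changed when single arrays were left out, which also makes the mean of a group less precise. Without tumorsphere 1, 276 genes rose and 437 fell, without tumorsphere 2 these were 273 and 468, and 552 and 537 genes rose without tumor 1 and tumor 2.

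The deepest falls, by size, began with Lyz1, Car3, Col3a1, Selenop, Lyz2, Sparc, Col1a2 and Vcam1 and went on to Mpeg1, Ctsc, Fabp4, Col4a1, Ctss, the iron exporter Slc40a1 and the transglutaminase Tgm2, from -7.33 for Lyz1 to -4.94 for Tgm2. All 15 also passed with any 1 of the 6 arrays left out. The Lyz1 value comes from a probe set that can bind near-identical copies, and the probe set specific to Lyz1 read 3.41 to 7.03 in tumors, so the Lyz1 value is uncertain. In all, 20 of the 145 named genes were read on probe sets of types that can bind more than 1 transcript. Acta2, Ets1, Fdft1, Gja1 and H2-Aa were among them. At the other end the largest rises were those of Chac1, Vgf, Mycn, P2rx3, Ret, Enc1, Dusp4 and Nrsn2, followed by Cartpt, Lrrn3, Th, Doc2b, Cdkn1a, Gria2 and Igf2, from 3.37 to 2.66.

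Most macrophage genes were lower in tumorspheres. Of 26 macrophage markers 23 fell and none rose, with a median difference of -2.92, against 6.99% of all genes tested that fell. Lyz2, which encodes the lysozyme of macrophages, had intensities of 1745, 1207, 1006 and 2178 in tumors 1 to 4 and of 8.42 and 15.01 in tumorspheres 1 and 2. Each tumor lay far above both cultures, and the difference was -5.75 (SE 0.31, adjusted p = 7.2e-10). Csf1r, the receptor for the macrophage growth factor CSF1, read 961, 902, 289 and 808 in the tumors and 5.70 and 15.5 in the tumorspheres, a difference of -4.72 (SE 0.44, adjusted p = 1.2e-06). Tumor 3 was the lowest of the tumors and still far above the cultures. The summed intensity of the list was 4149 to 10897 in tumors and 193 to 238 in tumorspheres. Of its 3 defining markers, C1qa, a subunit of complement C1q, read 0.65 and 0.71 in the tumorspheres, while Cd68, a protein of macrophage lysosomes, read 13.7 and 12.6 and Csf1r was as given above. Ctss and Mpeg1, a lysosomal protease and a pore-forming protein of phagocytes, fell, with differences of -5.11 (SE 0.26, adjusted p = 4.3e-10) and -5.36 (SE 0.32, adjusted p = 4.7e-09). The number of markers that fell was between 19 and 24 with any 1 of the 6 arrays left out.

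**Figure D1:**
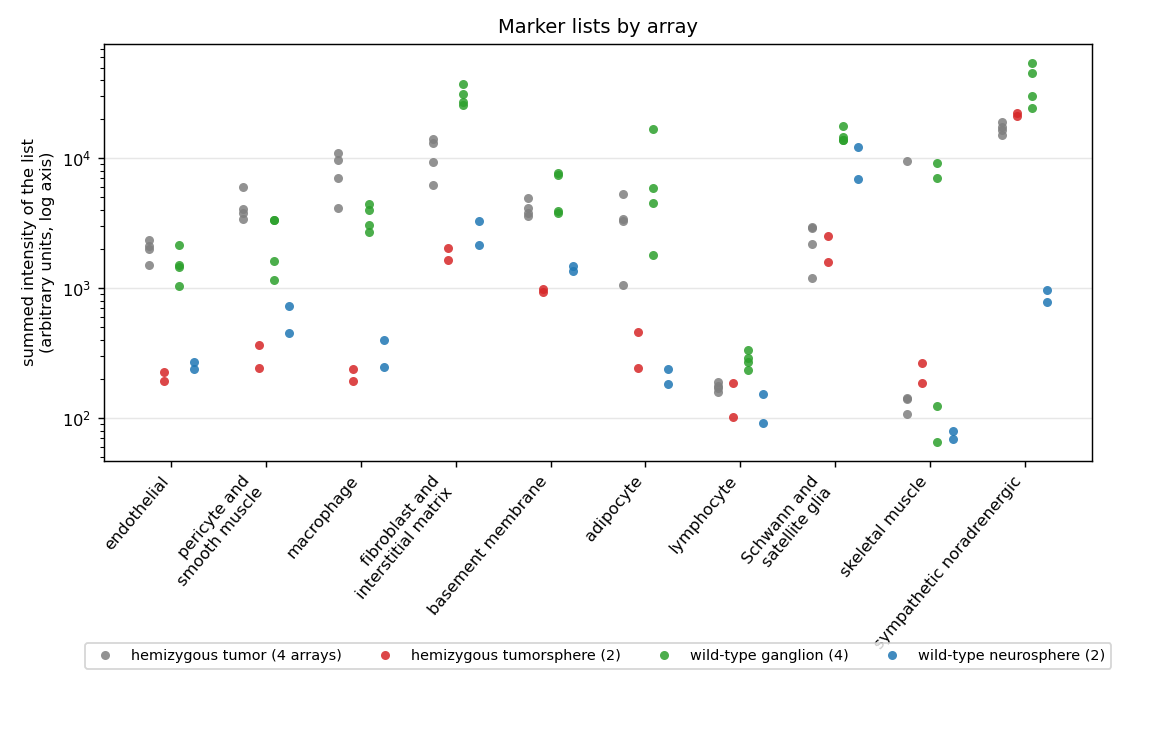
Summed intensity (arbitrary units, log axis) of the measured members of 10 marker lists, 1 point per array, for hemizygous tumors, hemizygous tumorspheres, wild-type ganglia and wild-type neurospheres. Macrophage markers summed to 4149 to 10897 in the tumors and 193 to 238 in the tumorspheres, while sympathetic markers summed to 15122 to 19029 and 21359 to 22308; the lone high tumor point for skeletal muscle is tumor 3.

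Of 25 endothelial markers 23 fell and none rose, with a median of -1.73. Kdr, the VEGF receptor of endothelium, read 211, 191, 109 and 141 in tumors and 2.53 and 8.59 in tumorspheres, a difference of -3.03 (SE 0.30, adjusted p = 2.6e-06). Its groups did not overlap. Cdh5, the cadherin of endothelial junctions, was dimmer, at 37.1, 47.1, 58.7 and 80.999 against 0.72 and 0.69, and fell, with a difference of -2.07 (SE 0.32, adjusted p = 0.0003). Mmrn2, an endothelial matrix protein, gave the deepest fall of the list, -4.19 (SE 0.31, adjusted p = 6.5e-08). Pecam1, another junction protein, was dim in tumors too (32.8, 32.4, 13.9 and 10.7) and its call was lost without tumorsphere 1, -1.12 (adjusted p = 0.12), tumorsphere 2, -1.10 (adjusted p = 0.13), tumor 1, -0.98 (adjusted p = 0.051), or tumor 2, -0.98 (adjusted p = 0.051). Leaving out either tumorsphere reduced the endothelial count to 14. Summed intensities of the list were 1504 to 2342 in tumors and 194 to 226 in tumorspheres, with no overlap.

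Pericyte and smooth muscle genes followed, with 9 of 16 tested members lower, none higher and a median of -1.56. Rgs5, a regulator of G protein signaling in pericytes, read 1339, 1543, 981 and 1636 in tumors and 48.05 and 56.2 in tumorspheres, a difference of -4.33 (SE 0.41, adjusted p = 1.7e-06). Acta2, the actin of smooth muscle, was 1242, 1489, 1397 and 2231 in tumors and 25.3 and 63.5 in tumorspheres, a difference of -4.77 (SE 0.59, adjusted p = 3.2e-05). The pericyte receptor for PDGF, Pdgfrb, read 303, 192, 222 and 595 in tumors and 7.01 and 31.7 in tumorspheres, a difference of -3.24 (SE 0.40, adjusted p = 3e-05). In each of these genes the lowest tumor exceeded the higher tumorsphere.

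Matrix genes gave some of the deepest falls. In the list of fibroblast and interstitial matrix genes 20 of 29 tested members fell and 2 rose, with a median of -2.48. Col3a1, the chain of type III collagen, read 2410.2, 1821, 1031 and 1847 in the 4 tumors and 0.97 and 7.59 in the tumorspheres. Col1a2, a chain of type I collagen, read 2058, 1358, 808 and 1741 and 12.6 and 19.1. Every tumor was far above both cultures, and the differences were -6.42 (SE 0.54, adjusted p = 3.7e-07) and -5.49 (SE 0.39, adjusted p = 4.3e-08). Sparc, a secreted matrix protein, read 946, 572, 552 and 1317 in tumors and 1.92 and 1.73 in tumorspheres. Fn1, fibronectin, and Col1a1, the other type I chain, had differences of -4.36 (SE 0.37, adjusted p = 4.8e-07) and -3.39 (SE 0.49, adjusted p = 0.00014). The fibroblast marker Dcn, decorin, was 846, 580.2, 37.6 and 399 in tumors, so tumor 3 was the lowest by far, and 10.3 and 5.04 in tumorspheres. Pdgfra, a receptor of fibroblasts, read 20.1, 29.8, 9.50 and 14.5 and 6.83 and 0.72 and differed by -0.79 (adjusted p = 0.098), or -2.30 (adjusted p = 0.0085) with a pseudocount of 1.

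The list did not move as 1 block, since Thy1 and Fbln1 rose. Thy1, a surface protein of fibroblasts and also of neurons, read 60.2, 37.5, 71.9 and 167 in tumors and 352 and 474 in tumorspheres, a difference of 2.24 (SE 0.38, adjusted p = 0.00056). Fbln1, fibulin 1, was 266, 292, 386 and 403 and 652 and 567 and rose by 0.84 (adjusted p = 0.008), a call that was lost without tumorsphere 1, 0.75 (adjusted p = 0.13), and with its probe sets averaged, 0.06 (adjusted p = 0.85). The summed list stood at 1635 to 2031 in tumorspheres and 6192 to 14072 in tumors, with tumor 3 the lowest tumor.

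Basement membrane genes fell in 8 of 14 cases, or 5 without tumorsphere 1, with a median of -1.09. Col4a1, a chain of type IV collagen, went from 1784, 1626, 1896 and 2214 in tumors to 45.001 and 30.5 in tumorspheres, a difference of -5.14 (SE 0.33, adjusted p = 8.7e-09). Nid1, the linker protein nidogen, and Col18a1, a collagen of vessel basement membranes, had differences of -3.58 and -3.26 (adjusted p = 8.9e-07 and 2.6e-06). Lamb2, a laminin chain, was the exception, with 65.97, 62.4, 66.2 and 55.7 in tumors and 155 and 193 in tumorspheres, but its rise of 1.27 (adjusted p = 0.026) did not pass without tumorsphere 1, 1.41 (adjusted p = 0.11), tumorsphere 2, 1.13 (adjusted p = 0.22), or tumor 2, 1.27 (adjusted p = 0.053).

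Fat, muscle, glial and blood cell genes gave a less even picture. Fabp4, a fatty acid carrier of adipocytes and endothelium, read 553, 701, 235 and 2125 in tumors and 4.13 and 0.67 in tumorspheres, a difference of -5.22 (SE 0.84, adjusted p = 0.00037). Car3, a carbonic anhydrase abundant in fat and muscle, read 2195, 1672, 1213 and 1904 and 0.42 and 0.71. No tumor came near the cultures in either gene. Adipoq, the adipocyte hormone adiponectin, read 239, 152, 4.39 and 266 in tumors, near the floor in tumor 3, and 0.69 and 0.8 in tumorspheres. Its difference of -2.90 (adjusted p = 0.095) passed once tumor 3 was left out, -3.78 (adjusted p = 0.017). In all 3 of 8 tested adipocyte members fell, Fabp4, Lpl and Cd36, 5 without tumor 3 and 1 without tumorsphere 2. None of 11 skeletal muscle genes passed. Acta1, the actin of skeletal muscle, was high in tumor 3 alone and differed by -0.67 (SE 1.84, adjusted p = 0.88). None of the 10 tested lymphocyte genes and none of the 6 erythroid genes passed in either direction, and lymphocyte sums overlapped, at 158 to 189 in tumors and 103 to 187 in tumorspheres.

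The Schwann cell and satellite glia list had 1 member higher and 2 lower of 16, beside 5.59% and 6.99% of all genes tested. Its defining factor Sox10 was low in both groups, 26.8, 21.7, 3.20 and 7.45 in tumors and 3.23 and 3.15 in tumorspheres, and differed by -0.60 (adjusted p = 0.34). Apoe, an apolipoprotein made by glia and by macrophages, read 1618, 895, 384 and 911 in tumors and 27.3 and 30.3 in tumorspheres, a difference of -4.27 (SE 0.68, adjusted p = 0.00036). The calls of the other 2 members that passed, Kcnj10 at -1.54 and Pmp22 at 0.91, were lost without tumorsphere 1, -1.62 (adjusted p = 0.058) and 1.01 (adjusted p = 0.15), and without tumorsphere 2, -1.46 (adjusted p = 0.09) and 0.82 (adjusted p = 0.28). For Pmp22 the adjusted p was 0.084, 0.056 and 0.092 without tumor 1, 2 and 3 in turn.

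Of 15 tested antigen presentation genes 7 fell and none rose, with a median of -1.14. They were the class II genes H2-Aa, H2-Ab1, H2-Eb1 and Cd74 and, beside them, B2m, Tapbp and Psmb8. H2-Aa, a class II chain of antigen-presenting cells, read 685, 513, 261 and 559 in tumors and 6.12 and 5.11 in tumorspheres, a difference of -4.51 (SE 0.32, adjusted p = 4.9e-08). H2-Ab1 and H2-Eb1, its class II partners, were likewise near the floor in the cultures, at 1.49 and 1.67 and 12.9 and 9.52. B2m, beta-2 microglobulin of class I complexes, stayed well above the floor, at 1067, 611, 835 and 1261 in tumors and 336 and 221 in tumorspheres, a difference of -1.68 (SE 0.26, adjusted p = 0.00029). H2-K1, a class I heavy chain, was 929, 398, 524 and 497 in tumors and 395 and 234 in tumorspheres, groups that nearly met, and differed by -0.84 (adjusted p = 0.15). The summed macrophage markers moved with these genes, as given above, and their part in the class II values was not tested.

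Interferon-responsive genes fell in 9 of 18 cases with none higher, a count of 3 without tumorsphere 1 and 4 without tumorsphere 2. Rtp4, an interferon-induced chaperone, read 151, 44.6, 57.03 and 84.5 in tumors and 3.81 and 1.02 in tumorspheres and had a difference of -2.34 (SE 0.35, adjusted p = 0.00019). Ifih1, the RNA sensor MDA5, read 125, 35.2, 28.01 and 60.3 in tumors 1 to 4, highest in tumor 1, and 5.69 and 3.33 in tumorspheres, a difference of -1.78 (SE 0.35, adjusted p = 0.0023). Complement and coagulation genes fell in 5 of 10 cases with none higher. Serping1, the inhibitor of C1, read 304, 189, 81.2 and 399 in tumors and 18.5 and 15.9 in tumorspheres. C1s1, a C1 protease, and F13a1, a clotting factor subunit of macrophages, had differences of -2.59 (SE 0.40, adjusted p = 0.00027) and -2.22 (SE 0.38, adjusted p = 0.00077). The other two, Thbd and Plat, an anticoagulant receptor and a plasminogen activator, did not pass without tumorsphere 1, -1.13 (adjusted p = 0.062), and tumorsphere 2, -0.99 (adjusted p = 0.071).

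Neuroblastoma lines occur in an adrenergic and a mesenchymal-type state, and factors of the latter are also genes of fibroblasts and endothelium. Of 20 tested members 10 fell and 1 rose, with a median of -1.17, beside 6.99% of all genes tested that fell and 5.59% that rose. Wwtr1 and Yap1 encode TAZ and YAP, the coactivators of the Hippo pathway. Wwtr1 read 119, 104, 141 and 204 in tumors and 10.4 and 10.7 in tumorspheres, a difference of -2.54 (SE 0.31, adjusted p = 2.4e-05), and Yap1 read 90.6, 66.3, 52.3 and 82.6 and 18.2 and 9.74, a difference of -1.56 (SE 0.24, adjusted p = 0.00027). No tumor overlapped a tumorsphere in either gene. Vim, the intermediate filament vimentin, had a difference of -1.73 (SE 0.33, adjusted p = 0.0019) and read 323 and 255 in the tumorspheres, far above the floor. Axl, a receptor tyrosine kinase, and the annexins Anxa1 and Anxa2 fell, with differences of -2.16, -4.52 and -2.51 (adjusted p = 7.3e-06, 5.6e-06 and 4e-06). Cd44, a hyaluronan receptor, had a difference of -1.84 (adjusted p = 0.0028), or -1.51 (adjusted p = 0.086) without tumorsphere 1.

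S100a6, a calcium-binding protein, was the member that rose, and its tumorsphere values were unequal, 268 and 1068. Tumor 4, at 62.3, 52.7, 67.4 and 303 for tumors 1 to 4, exceeded tumorsphere 1. The difference of 2.34 (adjusted p = 0.0058) became 1.38 (adjusted p = 0.23) without tumorsphere 2. Targets of YAP and TAZ were measured in another list, where Ccn2, a matricellular growth factor, read 261, 209, 233 and 393 in tumors and 2.55 and 6.19 in tumorspheres, a difference of -3.80 (SE 0.64, adjusted p = 0.00056). Ccn1, its relative, had a difference of -1.58 (adjusted p = 0.0039), or -1.39 (adjusted p = 0.083) without tumorsphere 2. Cell adhesion genes fell in 8 of 24 cases with none higher, 5 without tumorsphere 1. The integrin chains Itgb5 and Itga1 had differences of -1.96 (SE 0.29, adjusted p = 0.00019) and -1.88 (SE 0.27, adjusted p = 0.00014), and the mesenchymal cadherin Cdh11 one of -1.41 (SE 0.26, adjusted p = 0.0012).

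**Figure D2:**
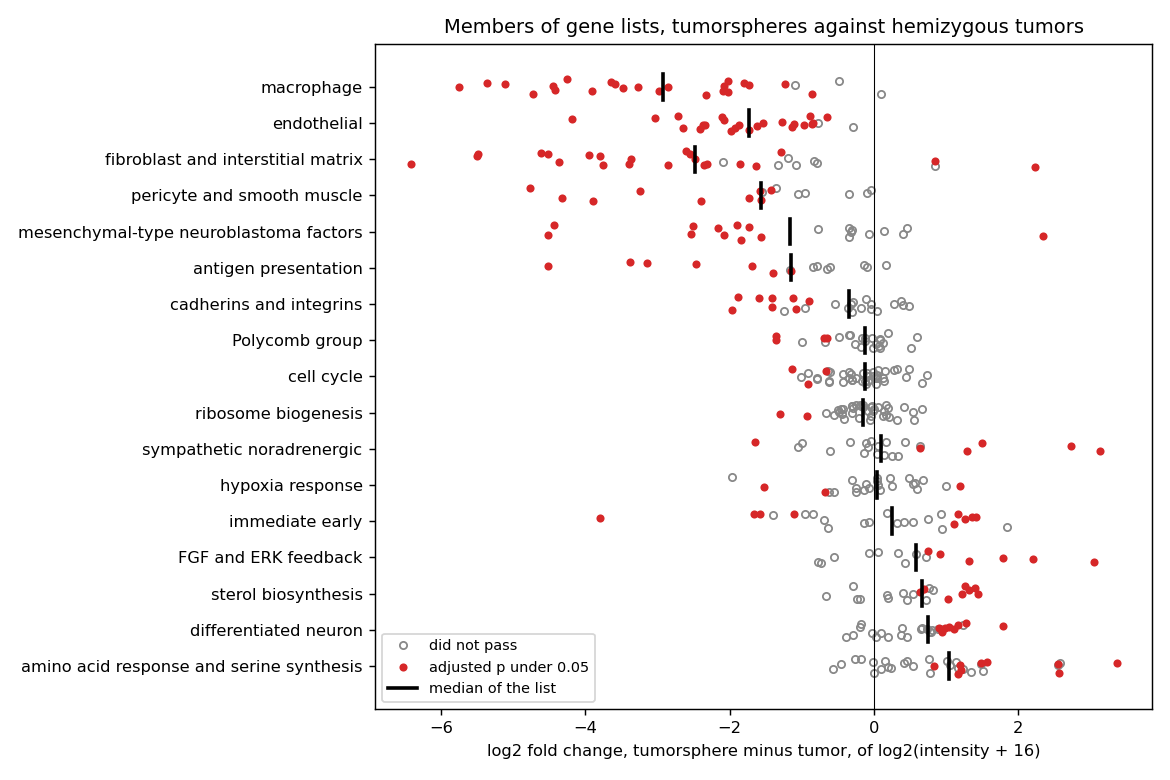
Log2 fold change, tumorsphere minus tumor, of each tested member of 17 gene lists, filled where the adjusted p was under 0.05; the bar is the median of the list. Macrophage, endothelial and matrix members lie mostly below 0, cell cycle and ribosome members around 0, and called members of the sterol, neuron and amino acid lists above 0.

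The noradrenergic genes of sympathetic neurons did not fall as a group. Of 22 tested 5 rose, Ret, Alk, Th, Gch1 and Tfap2b, and Gata2 fell, beside 5.59% of all genes tested that rose and 6.99% that fell, and the median was 0.10. The number that rose was 2 without either tumorsphere and 3 without tumor 1 or tumor 3. Hand2, a transcription factor of the core circuit, read 1285, 1274, 1188 and 1173 in tumors and 1216 and 1332 in tumorspheres, and the groups overlapped. Its difference was 0.05 (SE 0.22, adjusted p = 0.93). Isl1, another factor of the circuit, was 1659, 1879.8, 2639 and 2041 and 2364 and 2460.4, with a difference of 0.25 (SE 0.26, adjusted p = 0.62), and Ddc, the decarboxylase that makes dopamine, was 2699, 3112, 3384 and 3346 and 3345 and 2598, with a difference of -0.08 (SE 0.25, adjusted p = 0.9). Gata3 differed by 0.16 (adjusted p = 0.84). A p of this size does not show that levels were equal, but each of these markers stood well above the floor in all 6 arrays.

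Ret and Alk were the receptors of the list that rose. Ret, the receptor for GDNF family ligands, read 38.03, 83.3, 20.996 and 173 in tumors 1 to 4 and 444 and 1017 in tumorspheres 1 and 2. Tumor 4 was the highest tumor and lay below both cultures, and the difference was 3.14 (SE 0.46, adjusted p = 0.00015); a dimmer Ret probe set differed by 0.77. Alk, the receptor tyrosine kinase mutated in familial neuroblastoma, was at 148, 101, 148 and 104 in tumors and 418 and 342 in tumorspheres, a difference of 1.499 (SE 0.28, adjusted p = 0.0017). Both calls held with any 1 array left out. With a pseudocount of 1 in place of 16, Alk had 1.61 (adjusted p = 0.055).

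Th, tyrosine hydroxylase, the rate-limiting enzyme of catecholamine synthesis, varied widely among the tumors. It read 171, 213, 717 and 1770.5 in tumors 1 to 4 and 3097 and 3328 in tumorspheres 1 and 2. Tumor 4 was the highest tumor and tumor 1 the lowest, and all 4 lay below both cultures. The difference was 2.73 (SE 0.59, adjusted p = 0.0047), and the call was lost narrowly without tumorsphere 1, 2.78 (adjusted p = 0.052), or tumorsphere 2, 2.68 (adjusted p = 0.061), and with only the compared arrays in the fit, adjusted p = 0.066. Gch1, which supplies the cofactor of tyrosine hydroxylase, read 121, 231, 129.7 and 363 and 587 and 414, with 1.29 (adjusted p = 0.026), and Tfap2b, a factor of sympathetic differentiation, 1589.7, 1424, 1686 and 1720.0 and 2532 and 2458, with 0.64 (adjusted p = 0.043). Without tumorsphere 1, tumorsphere 2, tumor 1 and tumor 3 in turn the adjusted p was 0.28, 0.081, 0.078 and 0.059 for Gch1 and 0.24, 0.2, 0.083 and 0.051 for Tfap2b, and 0.11 for Tfap2b without tumor 2.

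Dbh and Slc6a2, which act after Th, did not rise. Dbh, which turns dopamine into noradrenaline, read 103, 206, 89.8 and 238 in tumors and 54.1 and 79.7 in tumorspheres, -0.997 (adjusted p = 0.101), and fell without tumor 3, -1.21 (adjusted p = 0.046). Slc6a2, the noradrenaline transporter, ranged from 8.56 to 435 among tumors and read 15.7 and 27.4 in the cultures, with a difference of -1.05 (adjusted p = 0.44). Chga, chromogranin A of secretory granules, was 333, 366, 407 and 908 and 784 and 503, which overlapped. Gata2, a factor of the circuit and also of endothelium, read 336, 707, 197 and 795 in tumors and 91.3 and 182 in tumorspheres, a difference of -1.65 (adjusted p = 0.013), or -1.21 (adjusted p = 0.24) without tumorsphere 1.

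**Figure D3:**
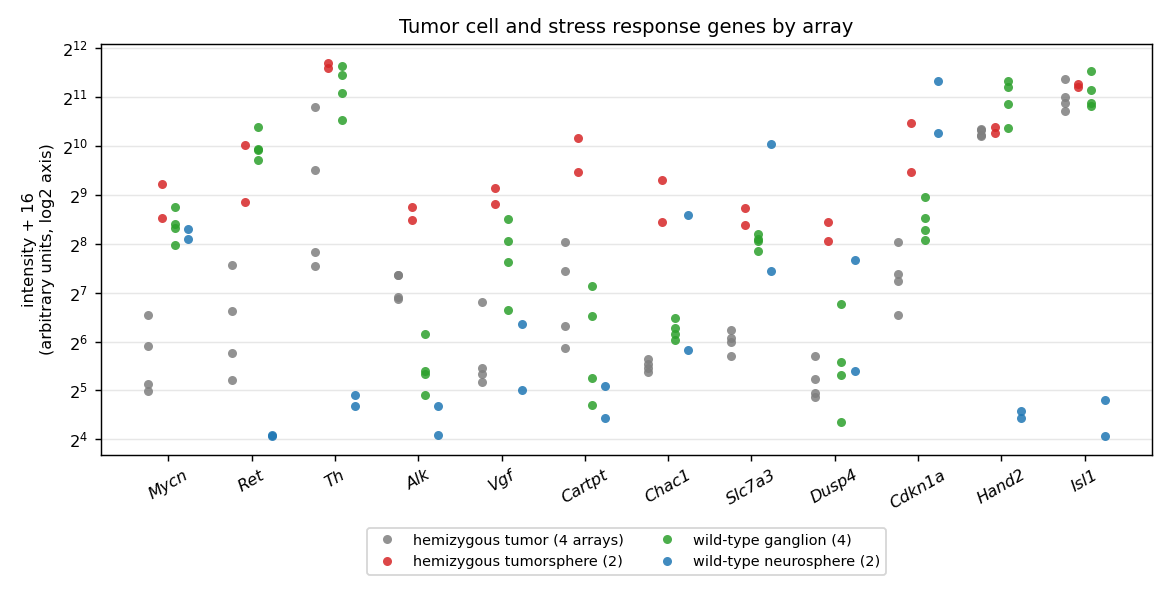
Intensity + 16 (arbitrary units, log2 axis) of 12 genes, 1 point per array, in hemizygous tumors, hemizygous tumorspheres, wild-type ganglia and wild-type neurospheres. Both tumorspheres exceeded all 4 tumors for Mycn, Ret, Th, Alk, Vgf, Cartpt, Chac1, Slc7a3, Dusp4 and Cdkn1a, and lay within or beside the tumors for Hand2 and Isl1.

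Mycn itself had one of the largest rises, on the probe set with the highest mean. It read 15.7, 19.1, 43.9 and 77.7 in tumors and 351 and 583 in tumorspheres, so every tumor was far below both cultures and tumors 1 and 2 were the lowest. The difference was 3.23 (SE 0.34, adjusted p = 5e-06). The 2 other Mycn probe sets differed by 0.68 and -0.02, with the brighter of them at 34.6 to 73.9 in tumors and 92.2 and 95.9 in tumorspheres. These probe sets were designed for the mouse gene, and the labels do not give the species of the transgene, so none of them is taken as its level. Id2, an inhibitor of differentiation factors, was the other neural crest gene that rose, by 1.56 (adjusted p = 0.0087), or 1.24 (adjusted p = 0.17) without tumorsphere 2.

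Neuronal genes rose in part. Of 28 genes of differentiated neurons 8 rose and none fell, with a median of 0.76, and their summed intensity was 16649.6 to 19254 in tumors and 26795 to 27438 in tumorspheres. The count was 2 without tumorsphere 1 and 1 without tumorsphere 2. Scg2, secretogranin II of dense-core vesicles, read 12.1, 39.2, 16.4 and 43.3 and 125 and 129 and kept its call with any 1 array left out, at 1.79 (SE 0.33, adjusted p = 0.0013). Scg3, Stmn3, Uchl1 and Syt1, a granin, a microtubule regulator, a neuronal ubiquitin hydrolase and a vesicle calcium sensor, rose by 1.28, 0.90, 1.17 and 0.94. Their adjusted p-values were 0.0076, 0.0082, 0.01 and 0.0091, then 0.085, 0.095, 0.097 and 0.093 without tumorsphere 1 and 0.069, 0.072, 0.091 and 0.082 without tumorsphere 2. Tubb3 and Dcx, cytoskeletal genes of young neurons, differed by 0.91 (adjusted p = 0.11) and 0.89 (adjusted p = 0.087).

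Vgf, a neuropeptide precursor induced by nerve growth factors, read 24.5, 20.1, 27.8 and 96.1 in tumors and 548 and 432 in tumorspheres, 3.28 (SE 0.47, adjusted p = 0.00014). Nrsn2, a small neuronal membrane protein, was at the floor in the tumors (3.15, 2.09, 2.98 and 2.31) and at 184 and 88.97 in the tumorspheres, 2.96 (SE 0.25, adjusted p = 3.4e-07). Doc2b, a calcium sensor of vesicle release, was 11.5, 24.6, 18.9 and 81.5 and 169.6 and 443, 2.73 (SE 0.40, adjusted p = 0.00018). Vgf, Nrsn2 and Doc2b were among the 15 highest genes, for which lack of overlap between groups was a condition. Tumor 4 was the highest tumor for Vgf and Doc2b.

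Others of the 15 highest were P2rx3, an ATP-gated channel of sensory neurons, Gria2, a glutamate receptor subunit, and Lrrn3, a neuronal leucine-rich repeat protein. They rose by 3.17, 2.67 and 2.79 (adjusted p = 6.6e-05, 0.00011 and 3.6e-05). Enc1, an actin-binding protein of neuroectoderm, was already high in tumors, 376, 277, 169 and 256, and reached 1756 and 3003 in tumorspheres. Cartpt, the precursor of the CART peptides, read 64.3, 42.1, 246 and 159 and 697 and 1126, with a difference of 2.90 (adjusted p = 0.0076) and of 2.56 (adjusted p = 0.12) without tumorsphere 2. Igf2, an imprinted growth factor, was 16.1, 67.6, 5.16 and 42.7 and 212 and 304, and its 2.66 (adjusted p = 0.011) became 2.91 (adjusted p = 0.067) without tumorsphere 1 and 2.42 (adjusted p = 0.14) without tumorsphere 2.

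The largest rise of all was that of Chac1, an enzyme that degrades glutathione and is induced with amino acid shortage through the factor ATF4. The factor binds a composite element whose core is written TGATGNAA. The promoters of Chac1, of Atf3, a factor of the same response, and of Asns, asparagine synthetase, its classical target, are shown because each holds this core. They are the 250 bases before the annotated start in RefSeq on GRCm38.p6, 5′ to 3′ on the strand of the gene, with matches to the core, or to TTNCATCA, the same core on the other strand, in capitals. Chac1 is at chr2:119350992-119351241 on the plus strand, Atf3 at chr1:191183334-191183583 and Asns at chr6:7693210-7693459, both on the minus strand.
Chac1: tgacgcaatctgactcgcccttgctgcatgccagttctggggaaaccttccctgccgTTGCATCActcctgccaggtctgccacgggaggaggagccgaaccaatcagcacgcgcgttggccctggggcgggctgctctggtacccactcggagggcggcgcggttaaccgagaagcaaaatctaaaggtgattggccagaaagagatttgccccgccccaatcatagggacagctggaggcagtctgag
Atf3: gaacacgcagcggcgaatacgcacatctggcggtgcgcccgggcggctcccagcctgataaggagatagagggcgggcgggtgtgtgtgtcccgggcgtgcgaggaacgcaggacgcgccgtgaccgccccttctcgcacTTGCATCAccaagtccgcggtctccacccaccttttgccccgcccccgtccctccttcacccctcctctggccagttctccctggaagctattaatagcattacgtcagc
Asns: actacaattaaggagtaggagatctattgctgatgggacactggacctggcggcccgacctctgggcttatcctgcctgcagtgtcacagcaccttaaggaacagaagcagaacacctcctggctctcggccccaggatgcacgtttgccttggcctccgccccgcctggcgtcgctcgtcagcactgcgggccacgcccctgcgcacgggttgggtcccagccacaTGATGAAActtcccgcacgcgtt
The core occurred in 3.45% of 32851 promoters of this length. Of the 34 genes of the amino acid response list 26 had a promoter entry and 7 of these held the core, 2 of the 8 that rose and 5 of the 18 others. A match is a description of the letters only.

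Chac1 read 30.3, 33.9, 25.7 and 28.1 in tumors 1 to 4 and 334 and 618 in tumorspheres 1 and 2, so the tumors were uniformly low, and the difference was 3.37 (SE 0.45, adjusted p = 6.5e-05). Of the 34 genes of the amino acid response and of serine synthesis 9 rose and none fell, with a median of 1.04. Their summed intensity was 10439 to 12695 in tumors and 17529.5 to 19215 in tumorspheres. Slc7a3, an importer of cationic amino acids, read 47.6, 59.2, 36.2 and 51.4 and 407 and 317, 2.55 (SE 0.44, adjusted p = 0.00069). Sesn2, a leucine sensor that restrains mTORC1, was 28.9, 31.9, 2.18 and 16.0001 and 143 and 233, 2.57 (SE 0.48, adjusted p = 0.0014). Stc2, a stanniocalcin of the stress response, was dimmer but even within groups, 14.7, 15.3, 15.9 and 15.7 and 59.01 and 53.3, 1.20 (SE 0.16, adjusted p = 7.7e-05). These 4 genes passed with any 1 array left out.

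Atf4 was 378, 450.1, 485 and 404 in tumors and 1171 and 1291 in tumorspheres, with no overlap and a difference of 1.49 (adjusted p = 0.019), but 1.56 (adjusted p = 0.11) without tumorsphere 1 and 1.42 (adjusted p = 0.16) without tumorsphere 2. Atf5, its close relative, rose by 1.22 (adjusted p = 0.0076), or 1.03 (adjusted p = 0.14) without tumorsphere 1, and Atf3 by 1.17 (adjusted p = 0.034), with an adjusted p of 0.19, 0.19, 0.099 and 0.068 without tumorsphere 1, tumorsphere 2, tumor 2 and tumor 3. Asns read 755, 723, 1034 and 577 and 1608 and 1758, groups that did not overlap, yet its difference of 1.14 (SE 0.39, adjusted p = 0.065) did not pass, and it did without tumor 3, 1.29 (adjusted p = 0.046). Ddit3, the stress factor CHOP, and Trib3, a pseudokinase of the response, differed by 1.52 (adjusted p = 0.071) and 2.55 (adjusted p = 0.085). The spread that limits these calls included the neurospheres, where Trib3 read 1.74 and 1024. With only the compared arrays in the fit 17 members rose, among them Asns, Ddit3 and Trib3 (adjusted p = 0.02, 0.0019 and 0.0025). The count was 4 without tumorsphere 1 and 5 without tumorsphere 2.

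Sterol synthesis genes rose in 8 of 20 tested cases with none lower, with a median of 0.67. Fdft1, squalene synthase, the first committed enzyme of sterol synthesis, read 526, 474, 502 and 514 in tumors and 1328 and 1241 in tumorspheres. Tumors were tightly grouped and all below the cultures, at a difference of 1.32 (SE 0.20, adjusted p = 0.00023). Dhcr7, which makes the last step to cholesterol, was 127, 166, 202 and 188 and 556 and 426, 1.45 (adjusted p = 0.0039), or 1.26 (adjusted p = 0.086) without tumorsphere 1. Msmo1, a sterol oxidase, rose by 1.26 (adjusted p = 0.0061), with 1.32 (adjusted p = 0.054) and 1.20 (adjusted p = 0.083) without tumorsphere 1 and 2. Hmgcs1, an early enzyme of the pathway, was 2334, 2466, 2207 and 1755 and 3078 and 3250.5, which did not overlap, with 0.54 (adjusted p = 0.37). Summed intensities were 7487, 7384, 7307 and 6326 in tumors 1 to 4 and 11387 and 11587 in tumorspheres 1 and 2. The count of 8 was 1 and 2 without tumorsphere 1 and 2, and 5, 4 and 4 without tumor 1, 2 and 4. In the fatty acid list 1 of 13 rose, beside 5.59% of all genes tested. It was Elovl6, an elongase, at 0.62 (adjusted p = 0.03). Its call was lost without tumorsphere 1, tumorsphere 2, tumor 1 or tumor 2, with an adjusted p of 0.075 and 0.068 without tumor 1 and tumor 2.

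Feedback genes of FGF and ERK signaling, which mark recent activity of growth factor receptors, rose in 6 of 15 cases with none lower. With only the compared arrays in the fit 2 members fell, and 1 fell with replicate number as a block. Dusp4, a phosphatase of ERK, read 14.9, 13.2, 21.7 and 36.04 in tumors and 249.7 and 330.5 in tumorspheres, 3.06 (SE 0.53, adjusted p = 0.00075). Shc4, an adaptor of receptor tyrosine kinases, was 25.7, 26.1, 34.3 and 36.3 and 176 and 118, 1.79 (SE 0.25, adjusted p = 9.1e-05). Both were separate in all arrays. Etv5, a transcription factor downstream of FGF, rose by 2.21 (adjusted p = 0.0018), or 1.87 (adjusted p = 0.062) without tumorsphere 2. Dusp6, the best known of these targets, was 79.7, 83.3, 38.3 and 78.9 and 56.8 and 161, so the groups overlapped, with 0.44 (adjusted p = 0.75). The count was 3 and 2 without tumorsphere 1 and 2.

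Immediate early genes split, with 5 of 24 higher, Egr1, Ier2, Atf3, Nr4a1 and Dusp1, and 4 lower, beside 5.59% and 6.99% of all genes tested. Egr1, a factor induced within minutes of stimulation, was even in tumors, 196, 197, 225 and 194, and unequal in tumorspheres, 918 and 351, and its 1.42 (adjusted p = 0.013) became 0.75 (adjusted p = 0.38) without tumorsphere 1. Dusp1 and Nr4a1 rose by 1.27 and 1.37, or 1.16 (adjusted p = 0.083) and 0.94 (adjusted p = 0.099) without tumorsphere 1. No member rose without that array, and 3 did without tumor 2. Zfp36, which destabilizes messenger RNA, read 58.4, 27.8, 34.5 and 57.5 in tumors and 1.09 and 4.34 in tumorspheres, a difference of -1.66 (SE 0.22, adjusted p = 5e-05). The others that fell were Ier5, Ccn1 and Ccn2, and without tumorsphere 2 the number that fell was 2.

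Cdkn1a, the cell cycle inhibitor p21, was the p53 target that moved most. It read 152, 246, 76.8 and 135 in tumors and 693 and 1412 in tumorspheres, 2.67 (SE 0.39, adjusted p = 0.00014), and kept its call with any 1 array left out. Of 17 targets of p53, 2 rose and none fell, beside 5.59% of all genes tested that rose and 6.99% that fell. Bbc3, which encodes PUMA, rose by 0.81 (adjusted p = 0.049), and its adjusted p was 0.24, 0.22, 0.11, 0.079 and 0.086 without tumorsphere 1, tumorsphere 2 and tumors 1, 2 and 3. Mdm2, the ligase that degrades p53, was 251, 287, 220.2 and 311 and 397 and 309, with 0.38 (adjusted p = 0.46).

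Of 43 cell cycle genes none rose and 3 fell, with a median of -0.11, a share that fell near the 6.99% of all genes tested. Mki67, which encodes the Ki-67 antigen, read 2480.2, 2379, 2630.5 and 2101 in tumors and 2029.7 and 1854 in tumorspheres, -0.30 (SE 0.33, adjusted p = 0.65), and Top2a, topoisomerase II, 1596, 1785, 1706 and 1821 and 2047 and 1537, 0.04 (SE 0.30, adjusted p = 0.96). The 3 that fell were Kif11, Bub1 and Gins1, a mitotic kinesin, a checkpoint kinase and a replication factor, with differences of -1.13, -0.91 and -0.66 (adjusted p = 0.027, 0.038 and 0.026). None of them passed without tumorsphere 1 (0.3, 0.22 and 0.2), tumorsphere 2 (0.074, 0.19 and 0.13) or tumor 2 (0.073, 0.096 and 0.064), and 1 did without tumor 1. Gins1 had an adjusted p of 0.054 without tumor 3 and Bub1 of 0.053 without tumor 4. Of 39 ribosome biogenesis genes, a group with many targets of MYC proteins, 2 fell, Noc3l and Ddx21, and none rose, with a median of -0.15, also near that share. Without tumorsphere 1 neither passed, at -1.18 (adjusted p = 0.073) and -0.93 (adjusted p = 0.13), and Ddx21 gave -0.92 (adjusted p = 0.13) without tumorsphere 2 and -0.83 (adjusted p = 0.052) without tumor 2.

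Genes tied to midkine and to stem cells were examined because the series includes a Mdk knockout. Mdk, the growth factor midkine, read 298, 206, 422 and 432 in tumors and 336 and 464 in tumorspheres, overlapping groups with a difference of 0.27 (SE 0.29, adjusted p = 0.64). Notch2, a receptor named for midkine signaling, was 169, 125, 92.4 and 132 and 93.5 and 104, with -0.32 (adjusted p = 0.81), and Hes1, a Notch target, 37.1, 33.9, 26.9 and 50.8 and 12.8 and 4.10, with -1.13 (adjusted p = 0.15), or -2.15 (adjusted p = 0.049) with a pseudocount of 1. Of 16 genes for midkine, pleiotrophin and their receptors 5 fell, Sdc4, Ptprz1, Lrp1, Itga4 and Itga6, and 1, Alk, rose. The shares of all genes tested were 6.99% lower and 5.59% higher, so the number that rose was near background. Sdc4, a heparan sulfate syndecan, read 138, 124, 28.3 and 108 in tumors and 4.84 and 2.65 in tumorspheres, a difference of -2.40 (SE 0.40, adjusted p = 0.0005). Ptprz1, a phosphatase receptor for both factors, read 43.8, 29.7, 13.04 and 17.7 and 4.998 and 1.23, and its difference of -1.09 (adjusted p = 0.038) lost its call without tumorsphere 1, -1.23 (adjusted p = 0.13), tumorsphere 2, -0.95 (adjusted p = 0.28), tumor 1, -0.90 (adjusted p = 0.11), and tumor 2, -1.03 (adjusted p = 0.09). The number that fell was 2 without either tumorsphere and 3 without tumor 1 or 2.

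Of 23 tested neural crest and neural stem cell genes 2 rose, Mycn and Id2, and 4 fell, Prom1, Kit, Ets1 and Egfr, with a median of -0.00. Among all genes tested 5.59% rose and 6.99% fell. Sox2, a factor of neural stem cells, was near the floor in all 6 arrays, 5.72, 5.28, 1.27 and 0.064 and 1.13 and 4.81, and Nes, nestin, was 41.8, 48.9, 42.7 and 41.4 and 30.5 and 41.6, -0.20 (adjusted p = 0.58). Prom1, which encodes CD133, read 49.6, 30.4, 27.97 and 42.6 in tumors and 13.3 and 5.803 in tumorspheres, a difference of -1.07 (adjusted p = 0.0075), or -0.85 (adjusted p = 0.16) without tumorsphere 2. Kit, the receptor for stem cell factor, and Ets1, a factor of neural crest and endothelium, had differences of -1.56 (SE 0.25, adjusted p = 0.00037) and -2.68 (SE 0.34, adjusted p = 3.6e-05), and both held with any 1 array left out. Dlk1, a Notch ligand relative, had probe sets that disagreed. The brighter read 2038, 1943, 1639.8 and 1804 and 1396 and 1256, a difference of -0.48 (SE 0.33, adjusted p = 0.42), and the other 271 to 834 in tumors and 1642 and 1063 in tumorspheres, a difference of 1.71.

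Setting the tumor cultures beside the wild-type cultures shows which differences were shared. Neurospheres against ganglia had 2546 genes higher (16.8%) and 3391 lower (22.4%). Of the genes that fell in tumorspheres 415 also fell in neurospheres, 39.2% of the former and 12.2% of the latter, and 241 (22.8%) rose there. Of those that rose in tumorspheres 76 also rose in neurospheres, 8.98% of the former and 2.99% of the latter, and 396 (46.8%) fell there. The difference between both culture effects was itself tested, as tumorsphere minus tumor less neurosphere minus ganglion. It passed for 4926 genes (32.5%), with 2700 (17.8%) higher and 2226 (14.7%) lower, and its median over all genes was 0.13. RNA quality moved with this comparison: the actin 3' to 5' ratio was 4.36 to 9.14 in ganglia and 7.77 and 3.78 in neurospheres 1 and 2, against 1.96 to 2.69 over tumors and tumorspheres. The GAPDH ratio was 2.56 to 4.13 in ganglia and 3.37 and 11.5 in the neurospheres, against 2.68 to 3.14 over tumors and tumorspheres. The part of RNA quality in the difference was not tested.

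Endothelial genes fell in both cultures. Of the 25 genes of the endothelial list 18 fell in neurospheres, beside 22.4% of all genes tested. The difference between the culture effects passed for 3, Kdr, Flt1 and Plvap, all lower. That share was near the 14.7% of all genes tested that were lower in this difference. Col3a1 was 4215, 5123, 7434 and 6467 in ganglia and 245 and 12.5 in neurospheres, with a difference between the effects of -0.38 (adjusted p = 0.74), and Rgs5 gave -0.91 (adjusted p = 0.25). A p of this size does not show that the effects were alike. Of 26 macrophage genes 11 were lower in the tested difference and none was higher. Lyz2 fell in both cultures, with a difference between the effects of -2.75 (adjusted p = 8.6e-05), and read 244, 297, 179 and 221 in ganglia. Cd68 fell in tumorspheres but was 0.16 in neurospheres against ganglia (adjusted p = 0.7), and C1qa was -1.12 there (adjusted p = 0.081).

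Of 22 noradrenergic genes 21 were higher in the tested difference and 1, Insm1, was lower, with a median of 4.63. In the neurospheres 21 of the 22 fell and 1 rose, with a median of -4.62, while 5 rose and 1 fell in tumorspheres, as given above. Th fell from 2165, 1472, 3193 and 2775 in ganglia to 14.1 and 9.72 in neurospheres, and the difference between the effects was 9.11 (SE 0.83, adjusted p = 2.2e-07). For Ret it was 9.05, for Npy, neuropeptide Y, 7.97 and for Ddc 7.77 (adjusted p = 1.1e-08, 4.1e-07 and 1e-10). Th and Ret moved in opposite directions in the 2 cultures, whereas Npy and Ddc, at 0.74 (adjusted p = 0.45) and -0.08 (adjusted p = 0.9) in tumorspheres, passed only in neurospheres, at -7.24 and -7.85 (adjusted p = 7.7e-09 and 3.4e-13). Hand2 read 8.03 and 5.73 in the neurospheres against 1216 and 1332 in the tumorspheres. Prkar1b, a regulatory subunit of protein kinase A, and Fkbp1b, a regulator of calcium release channels, followed with 7.74 and 7.72. Cell cycle genes lay on the other side, with 36 of 43 lower and 1, Ccne1, higher. Mki67 rose from 130.1, 472, 181 and 335 in ganglia to 2836 and 1969 in neurospheres.

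The lowest values were those of Vcam1, Slc1a3, Igfbp3, Pla2g7, Olig1 and Gja1. Slc1a3, a glutamate transporter of glia, Olig1, a factor of oligodendrocyte precursors, and Gja1, a gap junction protein, gave -7.05, -6.70 and -6.46 (adjusted p = 8.4e-10, 4.6e-07 and 2.5e-07). The Schwann cell and satellite glia list lay mostly on the other side, with 9 of 16 higher, 2 lower and a median of 1.54, and 11 of its members fell in neurospheres. Sox2 read 3783 and 3296 in neurospheres, where the tumorspheres were near the floor. Vcam1, an adhesion molecule, Igfbp3, which binds IGFs, and Pla2g7, a secreted phospholipase, gave -7.34, -7.01 and -6.97. Vcam1 fell from 864, 1133, 319 and 784 in tumors to below 1 in both tumorspheres and read 860.3 and 388 in the neurospheres. Ctsc, a lysosomal protease of immune cells, was 26.7 and 27.4 in tumorspheres but 1380.3 and 2246 in neurospheres, with -5.77 (adjusted p = 4.5e-09). Since Th and Hand2 were near the floor in neurospheres and Sox2 and Olig1 near it in tumorspheres, culture and cell type cannot be told apart in this difference.

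**Figure D4:**
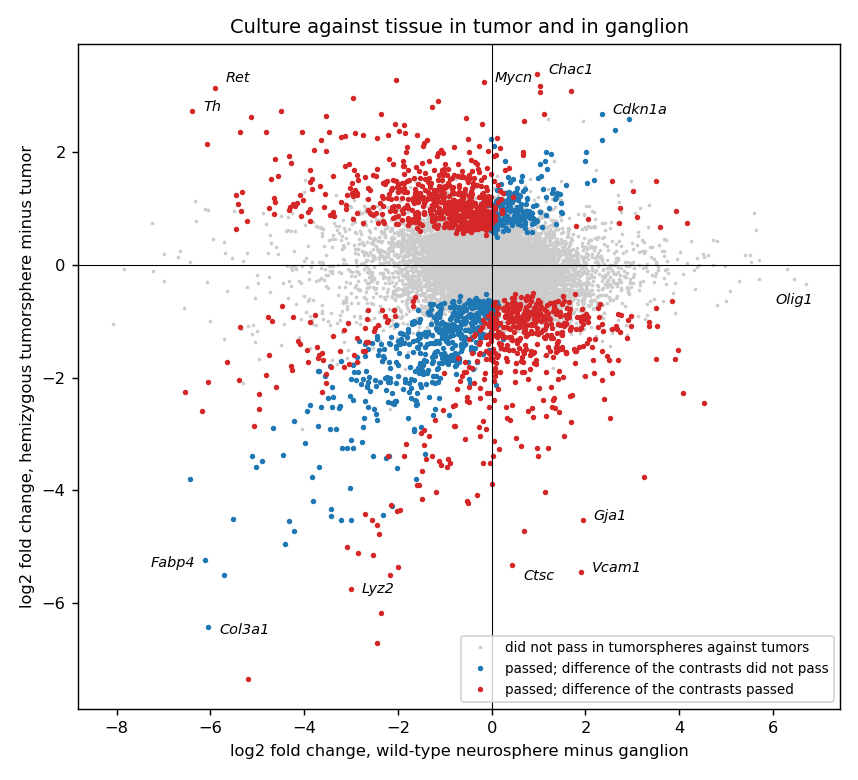
Log2 fold change of hemizygous tumorspheres against tumors (vertical axis) by that of wild-type neurospheres against ganglia (horizontal axis), 1 point per gene tested. Colored genes passed in tumorspheres against tumors, red where the difference between both contrasts also passed; Th and Ret rose in tumorspheres and were lower in neurospheres, Col3a1 and Fabp4 were lower in both, and Vcam1 and Gja1 fell in tumorspheres and were higher in neurospheres.

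For some genes that rose in tumorspheres the difference between the effects did not pass, which does not show that the effects were alike. Cdkn1a was 479, 297, 252 and 353 in ganglia and 1219 and 2575 in neurospheres, and the difference between the effects was 0.33 (adjusted p = 0.69). Sesn2, at 141 and 597 in neurospheres, gave -0.35 (adjusted p = 0.73), and of the amino acid list 14 of 34 rose in neurospheres. The 2 neurospheres were unequal, with the list summing to 12328 and 43354 in neurospheres 1 and 2 and to 9261 to 11331 in ganglia. Chac1 was uneven there, 40.9 and 370.1, and its difference of 2.40 passed (adjusted p = 0.0074). Neurosphere 2 was the higher of the pair for Chac1, Trib3 and Slc7a3 (157 and 1046), and the RNA quality ratios of the pair are given above. Sterol genes were higher in the tested difference in 9 of 20 cases and lower in none, and Fdft1, 2.74 (adjusted p = 9.5e-07), was 3056, 3093, 1999 and 2491 in ganglia and 1172 and 803 in neurospheres.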

How the data were processed

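RNA of 20 mouse samples was measured on 1 array each; per the labels' protocols, frozen tissue was extracted and 40 ng of RNA went through 2 cycles of amplification into biotin cRNA. The deposited values are intensities that the authors had brought to a common scale: the deposited arrays all have a trimmed mean (2% off either tail) of 100. The summarizing software is not given here in any source used. Intensities were analysed as log2(intensity + 16) without further normalization, the array medians spanning 0.33. Of 45101 probe sets 64 were controls, and 34945 had 1 gene symbol in the platform annotation, 932 several and 9160 were not listed; 34741 symbols were updated through a RefSeq gene table (GRCm38.p6). Each gene was represented by its brightest probe set over 20 arrays, and 15140 of 18193 genes passed the filter, above the 40th percentile of an array on at least 2 arrays. A member measured in few arrays can pass through the group where it is high.

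In R 4.3.3, limma 3.58.1 fitted 1 model to all arrays, with a mean for each of 7 groups. This left 13 residual degrees of freedom before moderation by eBayes. The contrasts were tumorsphere minus tumor, neurosphere minus ganglion, and the difference between them. Each was adjusted over all genes tested by the Benjamini-Hochberg method. Counts for neurosphere minus ganglion were not repeated under the alternatives named below. The number of arrays limits the precision. The scripts were tested on simulated data. Of 706 distinct genes in 33 lists 663 were matched and 651 tested. Named were the 15 highest and 15 lowest genes that passed without overlap between groups, the 6 highest and lowest of the difference between culture effects, up to 3 members of each list with the smallest p in each direction, the defining markers and a set tied to midkine and stem cells; other genes named were chosen after their values were seen. The members, lists and tests were chosen with earlier results of these data known. Deviations of same-numbered tumors and tumorspheres from their group means had correlations of -0.006 and 0.011, and the numbers were not taken as pairs. With 2 tumorspheres these deviations mirror each other, so the correlations cannot exclude pairing. Alternatives were quantile normalization, centring on array medians, pseudocounts of 1 and 64, no filter and a 60th percentile filter, the mean of all probe sets, the compared arrays alone, a replicate block and each array left out; tumors 1 and 2 alone and tumors 3 and 4 alone were added after seeing the data.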

Additional observations from a re-analysis of the deposited data

Results flagged for a closer look

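Single tumors stood apart from the other 3 in 14 of 145 named genes and in 5 of 33 summed lists, by the distance of the highest or lowest of 4 values to its neighbour over the range, against the 95% critical value of Dixon's test. Chance marks about 1 in 20 groups. Tumor 3 was highest for the muscle genes Acta1 (2390), Ckm (421) and Mylpf (550.3), for the summed skeletal muscle list (9495) and for Egr1 (225), and lowest for Cd36 (69.5), Csf1r (289), Lpl (721), Nid1 (214), Sdc4 (28.3) and Slc40a1 (260.0). Tumor 4 was highest for Fkbp1b (84.7), Itga6 (178) and S100a6 (303) and lowest for the summed neuron (16650) and sterol (6326) lists. Kit was highest in tumor 2 (255), the immediate early list was lowest there (3385), and the FGF and ERK list was lowest in tumor 1 (1920.5).

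Tumorsphere minus tumor differed from neurosphere minus ganglion for 4926 genes (32.5%) by the limma test of the difference. Culture and cell type cannot be told apart in this difference, and the part of RNA quality was not tested. The 6 highest were Th (9.11), Ret (9.05), Npy (7.97), Ddc (7.77), Prkar1b (7.74) and Fkbp1b (7.72), and the 6 lowest Vcam1 (-7.34), Slc1a3 (-7.05), Igfbp3 (-7.01), Pla2g7 (-6.97), Olig1 (-6.70) and Gja1 (-6.46), in log2 units. Of these, Npy, Ddc, Slc1a3 and Olig1 did not pass in tumorspheres against tumors.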

How the results depend on the processing

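The number of genes higher in tumorspheres was 846 and ranged from 273 to 994 with 1 array left out, and the number lower was 1058 and ranged from 437 to 1144. A fit without 1 tumorsphere assumes that the lone one varies like the other groups. With tumors 3 and 4 alone 257 genes were higher and 531 lower, of which 250 and 514 were among the main calls. Quantile normalization, centring, both pseudocounts, both filters, averaged probe sets and the compared arrays alone kept both counts within 1.5 times. Tumors 1 and 2 alone also did, with 1206 genes higher and 1230 lower, so the counts differed widely between the 2 pairs of tumors. For the difference between culture effects the counts of 2700 and 2226 stayed between 2005 and 3006 and between 1653 and 2345 with 1 array left out. Sample numbers were not taken as pairs in the main fit, and whether they mark pairs is unstated. A replicate block gave 692 genes higher and 970 lower, 621 and 867 of them shared with the main calls. The block reduced the sterol genes that rose from 8 to 3. Of 193 genes examined singly none changed direction with a call; 59 lost their call without tumorsphere 1, 57 without tumorsphere 2, and 6 with quantile normalization. Calls also depended on the tumors: 57 were lost with tumors 3 and 4 alone, 22 without tumor 1 and 23 without tumor 2. A group with an array left out is measured less precisely, and the cause of these losses was not tested. Only 2 tumorsphere arrays limit the precision, and genes near the floor have no order.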

Other observations

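Beside the counts that follow, 12.6% of all genes tested passed in either direction, 5.59% higher and 6.99% lower. Of 24 hypoxia genes 1 rose, Vldlr, and 2 fell, P4ha2 and Plod2, with a median of 0.04, and Vegfa, a classical hypoxia target, read 186, 157, 152 and 169 in tumors and 176 and 168 in tumorspheres. P4ha2, a collagen hydroxylase, had a difference of -1.52 (adjusted p = 0.0021), or -1.29 (adjusted p = 0.065) without tumorsphere 2. In the glycolysis list 2 of 14 rose. Pfkp, the platelet-type phosphofructokinase, went from 288, 324, 417 and 313 to 1201 and 1028, with a limma difference of 1.69 (SE 0.23, adjusted p = 6.1e-05) that held with any 1 array left out, while Aldoc, an aldolase, rose by 1.20 (adjusted p = 0.026) and by 1.29 (adjusted p = 0.13) and 1.12 (adjusted p = 0.2) without tumorsphere 1 and 2, 1.21 (adjusted p = 0.052) without tumor 1 and 1.04 (adjusted p = 0.059) without tumor 3. Of 19 genes of the unfolded protein response 1 rose and 1 fell, Herpud1 with 1.56 (adjusted p = 0.014) and Sdf2l1 with -0.87 (adjusted p = 0.015); neither passed without tumorsphere 1, 1.30 (adjusted p = 0.19) and -0.87 (adjusted p = 0.12), or tumorsphere 2, 1.82 (adjusted p = 0.057) and -0.86 (adjusted p = 0.12). None of 17 heat shock genes rose and 2 fell, Hspa1b and Cryab, which gave -2.28 (adjusted p = 0.17) and -2.09 (adjusted p = 0.084) without tumorsphere 1 and -2.001 (adjusted p = 0.24) and -1.86 (adjusted p = 0.13) without tumorsphere 2.

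Of 19 genes of oxidative stress and metal response 2 rose, Mt2 and Srxn1, and 1 fell, Hmox1. Mt2, a metallothionein, read 503, 356, 665 and 706 in tumors and 2109.8 and 1112 in tumorspheres, 1.48 (adjusted p = 0.008), or 1.02 (adjusted p = 0.21) without tumorsphere 1. Of 25 Polycomb genes 4 fell, Eed, Suz12, Cbx2 and Cbx6, and none rose. Eed and Suz12, core subunits of the complex that methylates histone H3, had differences of -0.69 (adjusted p = 0.011) and -1.36 (adjusted p = 0.013), or -0.80 (adjusted p = 0.051) and -1.24 (adjusted p = 0.15) without tumorsphere 1 and -0.59 (adjusted p = 0.17) and -1.48 (adjusted p = 0.072) without tumorsphere 2. Ezh2, the catalytic subunit, was 1235, 1350.4, 1547 and 1338 in tumors and 1158 and 1010.2 in tumorspheres, -0.33 (adjusted p = 0.28). None of the 4 passed with either tumorsphere left out.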
